A study of Mus musculus with 17 samples.

Results

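The genes described here are 10 genes of mast cells, basophils and eosinophils: Fcer1a and Ms4a2, Cpa3, Tpsb2 and Mcpt8, Hdc, Prg2, Prg3 and Epx, and Il5ra. They were chosen by name, as every non-control probe on the array whose gene name is 1 of the 10, and each gene turned out to have 1 probe, so that 10 of 41174 probes and 10 of 28090 gene names were followed. The mRNA came from 6 populations of bone marrow stem and progenitor cells of young adult female C57Bl/6 mice, for which the labels name no treatment, on 17 single-color arrays. Marrow from several mice was pooled for each replicate, depleted of cells carrying B220, CD3, Gr-1 or Ter119, enriched for c-kit and sorted by flow cytometry. The HSC subsets came from 1 sort within the Sca-1+ cells: long-term stem cells (LT-HSC, CD34- FLT3-, 2 arrays, of which 1 held a pool of replicates 2 and 3), short-term stem cells (ST-HSC, CD34+ FLT3-, 3 arrays) and multipotent progenitors (MPP, CD34+ FLT3+, 3 arrays). The myeloid populations came from a separate sort of the Sca-1- cells, with 3 arrays each: common myeloid progenitors (CMP, intermediate for CD34 and for the Fc gamma receptor), granulocyte-monocyte progenitors (GMP, CD34+ and Fc gamma receptor+) and megakaryocyte-erythroid progenitors (MEP, negative for both). None of these gates used FcεRI, IL-5 receptor or any other product of the 10 genes.

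Mast cells, basophils and eosinophils are the granulocytes of allergy and of defence against worms. Mast cells and basophils bind IgE through the receptor FcεRI and release histamine and proteases from their granules when the bound IgE is crosslinked, while eosinophils store basic proteins and a peroxidase and depend on interleukin 5. All 3 arise from progenitors in bone marrow, and transcription factors of the GATA family and C/EBPα are known to direct the choice between them.

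The arrays read each gene through 1 probe of 60 bases, whose position is given on mm9. Those of 5 genes are shown because the main results rest on them. The probes of Prg3 and Mcpt8 cover more genome than their own length, and so cross an exon junction. Prg2 and Prg3 are neighbours on chromosome 2, with 8809 bases between their probes. Among all 10 probes, no pair shared more than 25 of 60 bases in any ungapped alignment.
Fcer1a probe, chr1:175152865-175152924, minus strand: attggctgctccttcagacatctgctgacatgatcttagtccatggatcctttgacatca
Mcpt8 probe, chr14:56702300-56702674, minus strand: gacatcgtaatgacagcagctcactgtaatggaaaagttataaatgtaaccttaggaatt
Prg2 probe, chr2:84822799-84822858, plus strand: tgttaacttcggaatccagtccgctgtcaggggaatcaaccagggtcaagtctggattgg
Prg3 probe, chr2:84831668-84833177, plus strand: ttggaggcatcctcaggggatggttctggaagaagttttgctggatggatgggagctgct
Epx probe, chr11:87678288-87678347, minus strand: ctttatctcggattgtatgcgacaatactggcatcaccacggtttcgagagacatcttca

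The upstream sequences of Cpa3, Ms4a2 and Fcer1a are shown as examples that hold the GATA motif described below. These 3 genes had their highest mean in GMP and the next in ST-HSC. The same order held for Mcpt8, Hdc and Prg3, whose promoters do not hold that motif. RefSeq promoters (GRCm38.p6) were found for 8 of the 10 genes, all but Prg2 and Tpsb2, and each runs from 250 bases before the gene's start to 50 bases after it. The GATA motif AGATAA, on either strand, was in the promoters of Cpa3, Fcer1a, Il5ra and Ms4a2, that is 4 of 8, and in 11.2% of all 32851 promoters. Capitals mark it in the sequences, which stop at the base before the start. In Cpa3 it began 46 bases before the start, in Fcer1a 92 bases and in Il5ra 74 bases before it, and Ms4a2 held it at 3 places, 224, 37 and 11 bases before the start. The E-box CANNTG was in 7 of the 8 promoters, all but that of Ms4a2, and in 72.3% of all promoters. The PU.1 motif GAGGAA was in 3 of 8, those of Fcer1a, Il5ra and Mcpt8, and in 28.3% of all. The C/EBP motif TTGCGCAA was in none of the 8 and in 0.183% of all promoters. None of the other 3 motifs was placed against the GATA motif for overlap, and a match describes the letters only.
Cpa3 upstream, chr3:20242182-20242431, minus strand: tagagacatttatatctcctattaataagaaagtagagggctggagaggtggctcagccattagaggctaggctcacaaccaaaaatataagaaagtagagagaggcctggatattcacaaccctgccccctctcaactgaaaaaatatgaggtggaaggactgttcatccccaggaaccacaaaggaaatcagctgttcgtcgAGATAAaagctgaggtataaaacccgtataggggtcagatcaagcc
Ms4a2 upstream, chr19:11623720-11623969, minus strand: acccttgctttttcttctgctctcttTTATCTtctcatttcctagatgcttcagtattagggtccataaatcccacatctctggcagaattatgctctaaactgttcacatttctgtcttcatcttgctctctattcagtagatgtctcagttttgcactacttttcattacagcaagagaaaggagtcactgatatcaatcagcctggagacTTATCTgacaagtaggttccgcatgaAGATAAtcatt
Fcer1a upstream, chr1:173227230-173227479, minus strand: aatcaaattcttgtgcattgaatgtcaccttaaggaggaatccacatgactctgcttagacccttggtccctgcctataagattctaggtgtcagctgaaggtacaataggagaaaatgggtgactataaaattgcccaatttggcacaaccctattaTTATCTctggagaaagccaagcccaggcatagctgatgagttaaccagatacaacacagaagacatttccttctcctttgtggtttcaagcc

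Between 41.1% and 69.9% of probes on an array were well above background by the call of the scanner software. One LT-HSC array, the unnumbered one, had much weaker signal: its 75th percentile was 53.1 intensity units, while the other 16 lay at 243.3 or above. The labels name no batch, so the arrays were divided here into 3 scanning runs by the calendar month of the scan date in the file headers. Run 1 held the 6 numbered myeloid arrays, run 2 held the unnumbered array of each population other than LT-HSC, on 2 scan days and 2 slides, with CMP, GMP and MPP on 1 and MEP and ST-HSC on the other, so that differences within run 2 between these sets also cross day and slide. Run 3 held the numbered ST-HSC and MPP arrays and both LT-HSC arrays, the latter on a slide of their own. The mean of 3 HSC markers was at least 11.46 (log2) on every array of HSC subsets and at most 9.06 on every myeloid array. That of 4 GMP markers was highest in GMP (16.06 to 16.71), and that of 8 erythroid markers in MEP (10.54 to 11.56). Genes behind the gates followed them only in part. Fcgr3 had its highest mean in GMP (13.61) and Flt3 in MPP (9.93), and Cd34 had its lowest in MEP (9.80). Against the gates, Ly6a, which encodes Sca-1, was at 9.71 in GMP and 8.88 in ST-HSC. Cd34 was at 14.96 in LT-HSC and 14.29 in GMP, and Flt3 at 8.24 in LT-HSC. LT-HSC also had the highest mean of 5 B cell markers (8.57 to 9.02). The mean of 8 neutrophil markers was at least 9.27 on all arrays, and at least 7 of its 8 genes were well above background on each. These are sorted pools, so fewer cells of a type and less RNA per cell cannot be told apart.

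All values below are normalized log2 intensities, so that a difference of 1 is a doubling, and "called" means an adjusted p under 0.05 in limma over all 41174 probes. GMP had the highest mean of the 6 populations for 9 of the 10 genes, and ST-HSC for the other, Tpsb2. MEP had the lowest mean for 4 genes, LT-HSC for 3, MPP for 2 and CMP for 1, of which the ranks of Ms4a2, Il5ra and Tpsb2 lie within background. Of the 10 genes, 8 differed over the 6 populations by the F-test of limma, all but Il5ra (adjusted p = 0.0511) and Tpsb2 (adjusted p = 0.172). Among all probes, 40.6% did.

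**Figure D1:**
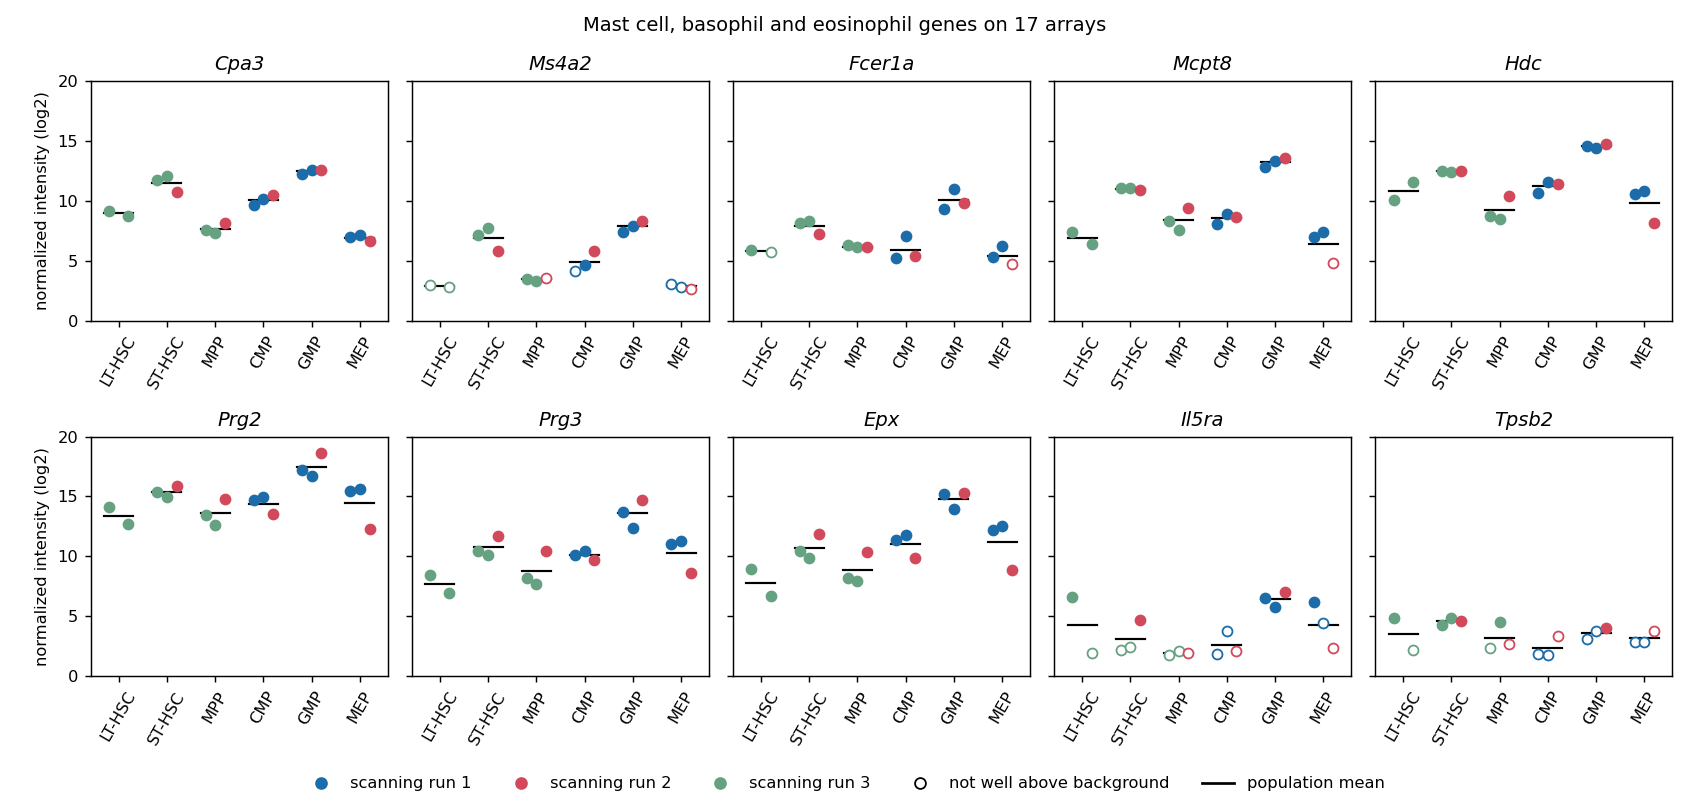
Normalized log2 intensity of the 10 genes on each of 17 arrays, by population, with 1 panel per gene. Points are arrays coloured by scanning run, open points are not well above background, and bars are population means. GMP is highest in 9 panels, and in the panels of Prg2, Prg3 and Epx the unnumbered MEP array lies below the other 2 MEP arrays.

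Ms4a2, the beta chain of FcεRI, which amplifies its signal, was found mainly in GMP and ST-HSC. It stood at 7.37, 7.92 and 8.36 on the GMP arrays and at 7.15, 7.74 and 5.81 on the ST-HSC arrays. CMP followed at 4.18, 4.67 and 5.79, of which the lowest was not well above background. It was at 3.51, 3.30 and 3.54 in MPP, at 2.98 and 2.84 in LT-HSC and at 3.06, 2.84 and 2.64 in MEP, and was not well above background on any LT-HSC or MEP array. GMP and ST-HSC overlapped and did not pass the test (difference 0.98 ± 0.46 SE, adjusted p = 0.158), whereas ST-HSC was above CMP (adjusted p = 0.0197). That step was not called with scanning run in the fit (adjusted p = 0.44), and in run 2, the only one that ST-HSC and CMP share, with 1 array each, Ms4a2 was at 5.81 and 5.79. Against MEP, Ms4a2 was at least 32.9-fold higher in GMP and at least 4.10-fold higher in CMP. Such bounds hold for the scanner software's processed signal only: with normexp and in the authors' table the differences of MEP from GMP were -1.58 and -2.55 (log2), below that bound.

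Fcer1a, the alpha chain that binds IgE, was at 9.28, 11.01 and 9.81 in GMP, above every other array. ST-HSC came next with 8.13, 8.34 and 7.24. The values were 6.29, 6.10 and 6.11 in MPP, 5.26, 7.04 and 5.41 in CMP, 5.91 and 5.75 in LT-HSC and 5.31, 6.21 and 4.73 in MEP. GMP was above ST-HSC by 2.13 ± 0.53 (SE, adjusted p = 0.0134). No later neighbours in the order ST-HSC, MPP, CMP, LT-HSC and MEP passed the test, although the ST-HSC and MPP arrays did not overlap.

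Among the granule proteases, Cpa3, the carboxypeptidase of mast cells, had the clearest order. It stood at 12.25, 12.59 and 12.59 in GMP and at 11.75, 12.06 and 10.70 in ST-HSC. CMP followed with 9.63, 10.15 and 10.49 and LT-HSC with 9.18 and 8.77. The lowest were MPP, with 7.58, 7.33 and 8.12, and MEP, with 6.94, 7.15 and 6.63. No array of 1 of these populations overlapped with those of its neighbour in the order. The steps from ST-HSC to CMP (adjusted p = 0.0223) and from CMP to LT-HSC (adjusted p = 0.0479) passed the test, and the other 3 had adjusted p from 0.0548 to 0.0982. With scanning run in the fit neither of the first pair was called (adjusted p = 0.335 and 0.147), and nor was the step from CMP to LT-HSC with 75th percentile scaling (0.0507). Within run 2 ST-HSC and CMP were at 10.70 and 10.49, and CMP and LT-HSC shared no run.

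Mcpt8, a protease made by basophils, was at 12.79, 13.35 and 13.54 in GMP and at 11.03, 11.07 and 10.93 in ST-HSC. The other arrays were lower, with 8.08, 8.88 and 8.63 in CMP and 8.29, 7.56 and 9.39 in MPP. LT-HSC was at 7.39 and 6.42, and MEP at 6.98, 7.39 and 4.82, the last not well above background. Both the step from GMP to ST-HSC (2.22 ± 0.59 SE, adjusted p = 0.0191) and that from ST-HSC to CMP (2.48 ± 0.59 SE, adjusted p = 0.0229) passed the test, and no pair of neighbours below ST-HSC in the order did. With scanning run in the fit neither was called (adjusted p = 0.363 and 0.0736), although the differences within run 2 were 2.61 and 2.30.

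Tpsb2, a tryptase of mast cells, was well above background on 6 of 17 arrays: all 3 of ST-HSC (4.29, 4.85 and 4.63), and 1 each of LT-HSC (4.83), MPP (4.49) and GMP (3.99). It was not well above background on any CMP or MEP array. No contrast between neighbours in its order was called.

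Hdc encodes histidine decarboxylase, the enzyme that makes histamine. It was at 14.61, 14.38 and 14.72 in GMP and at 12.48, 12.43 and 12.52 in ST-HSC, which is lower by 2.10 ± 0.66 (SE, adjusted p = 0.0403). CMP was at 10.66, 11.56 and 11.42 and LT-HSC at 10.05 and 11.56. MEP was at 10.55, 10.80 and 8.13 and MPP at 8.76, 8.45 and 10.41, and in both it was the unnumbered array of run 2 that stood apart.

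Prg2 and Prg3, the major basic protein of the eosinophil granule and its homolog, and Epx, the eosinophil peroxidase, were well above background on all 17 arrays. Prg2 was at 17.18, 16.68 and 18.59 in GMP and between 12.31 and 15.84 on the other 14 arrays. Prg3 was at 13.70, 12.36 and 14.73 in GMP, with ST-HSC at 10.48, 10.11 and 11.71, and Epx at 15.25, 13.95 and 15.27 in GMP. In MEP, Epx was at 12.17, 12.496 and 8.86, and in CMP at 11.36, 11.79 and 9.87. Every GMP array was thus above all other arrays for all 3 genes. No step below the first passed the test for any of the 3, and the first did for Prg3 (GMP above ST-HSC, adjusted p = 0.0358) and Epx (GMP above MEP, adjusted p = 0.0221) but not for Prg2 (GMP above ST-HSC, adjusted p = 0.106).

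Il5ra, the IL-5-binding chain of the receptor on which eosinophils depend, was well above background on all 3 GMP arrays (6.55, 5.74 and 7.03). It was otherwise so on 1 array each of MEP (6.15), LT-HSC (6.62) and ST-HSC (4.70), and on none of CMP or MPP. GMP was at least 14.5-fold above CMP on the scale of the processed signal, but the difference was 0.92 with normexp and 1.55 in the authors' table (log2), below that bound, and the difference of 3.86 ± 1.14 (SE) had an adjusted p of 0.0844. It was called with the replicate number as a block within each sort (adjusted p = 0.0406), with 75th percentile scaling (0.0208), in the authors' table (0.0325), without dim probes (0.0443) and without LT-HSC (0.0258). Against MPP, Il5ra was at least 22.2-fold higher in GMP (adjusted p = 0.0114), with a difference of 1.02 with normexp and 1.67 in the authors' table.

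The step from CMP to its descendants asks which of the genes separate the granulocytic from the erythroid branch. All 10 genes had a higher mean in GMP than in CMP, and 7 were called, namely Cpa3, Ms4a2, Hdc, Mcpt8, Fcer1a, Prg3 and Epx. Of all probes, 1.84% were called higher in GMP. The median difference was 3.44 over the 10 genes and 0.04 over all probes. Markers of GMP and of other cells also differed between these arrays. The mean log2 level of the 4 GMP markers was 16.06 to 16.71 in GMP and 13.59 to 14.73 in CMP. That of the 8 monocyte and macrophage markers was 8.79 to 8.99 and 8.03 to 8.33, that of the 8 erythroid markers 5.31 to 6.28 and 6.97 to 7.88, and that of the 6 megakaryocyte markers 8.45 to 9.25 and 10.34 to 11.32. The 8 neutrophil markers overlapped, at 9.501 to 11.40 and 9.27 to 10.21. The part of these in the differences was not tested. In 9 of the 10 genes, all but Tpsb2, every GMP array was above every CMP array, as was so for 10.4% of all probes.

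Mcpt8 differed most, by 4.70 ± 0.59 (SE, 26.0-fold, adjusted p = 0.000452), followed by Fcer1a with 4.13 ± 0.53 (SE, 17.5-fold, adjusted p = 0.000523). Epx was higher by 3.82 ± 1.01 (SE, adjusted p = 0.0482), Prg3 by 3.52 ± 0.87 (SE, adjusted p = 0.0337) and Hdc by 3.36 ± 0.66 (SE, adjusted p = 0.00893). The difference was 3.00 ± 0.46 (SE, adjusted p = 0.00177) for Ms4a2 and 2.39 ± 0.34 (SE, adjusted p = 0.000943) for Cpa3. With normexp and in the authors' table the differences of the dimmer genes were smaller and still called, 2.70 and 3.33 for Fcer1a and 1.27 and 1.93 for Ms4a2. Prg2 was 3.08 ± 0.85 (SE) above CMP without passing the test (adjusted p = 0.0601), and was called with scanning run (0.0357) or slide (0.0216) as a block, with 75th percentile scaling (0.032) and without dim probes (0.0313). The differences of the 10 genes ran from 1.64 to 4.59 within run 1 and from 0.61 to 5.40 within run 2, positive for all 10 in both. Without CMP replicate 1 the calls fell to 4, as Hdc, Prg3 and Epx were lost. Epx was lost without any 1 of 11 arrays (the 6 of GMP and CMP, MEP replicate 1, and replicates 2 and 3 of MPP and of ST-HSC), and Prg3 without any 1 GMP or CMP array other than GMP replicate 2. With the replicate number as a block, Epx was not called either (adjusted p = 0.0582).

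Between CMP and MEP the genes divided. The calls were 3, all lower in MEP: Cpa3 with -3.18 ± 0.34 (SE, 9.07-fold, adjusted p = 1.76e-05), Mcpt8 with -2.13 ± 0.59 (SE, adjusted p = 0.0248) and Ms4a2 by at least 4.10-fold (adjusted p = 0.00713). Among all probes, 9.43% were called lower in MEP. Marker means differed here too. They were 8.03 to 8.33 in CMP and 6.41 to 6.66 in MEP for monocytes and macrophages, and 10.34 to 11.32 and 7.25 to 7.85 for megakaryocytes. GMP markers were at 13.59 to 14.73 and 10.13 to 13.01. Higher in MEP were erythroid markers, at 6.97 to 7.88 and 10.54 to 11.56, and neutrophil markers, at 9.27 to 10.21 and 10.33 to 11.10. Their part in the differences was not tested. Prg2 (0.04 ± 0.85 SE), Prg3 (0.21 ± 0.87 SE) and Epx (0.17 ± 1.01 SE) had almost the same mean in MEP and CMP, with intervals that leave room for differences of either sign. Their signs changed with the run: within run 1 the differences of MEP from CMP were 0.67 for Prg2, 0.87 for Prg3 and 0.76 for Epx, and within run 2 they were -1.21 for Prg2, -1.11 for Prg3 and -1.0 for Epx. The call of Ms4a2 was lost in the authors' table (adjusted p = 0.169) and after normexp background correction (adjusted p = 0.41), and that of Mcpt8 without the unnumbered MEP array (-1.34, adjusted p = 0.0811), the unnumbered CMP array or CMP replicate 2.

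Between GMP and MEP, 8 genes were called lower in MEP than in GMP, all but Il5ra and Tpsb2. Among all probes, 9.56% were called in this direction. Monocyte and macrophage markers had means of 8.79 to 8.99 in GMP and 6.41 to 6.66 in MEP, and megakaryocyte markers 8.45 to 9.25 and 7.25 to 7.85. GMP markers were at 16.06 to 16.71 and 10.13 to 13.01, and erythroid markers at 5.31 to 6.28 and 10.54 to 11.56. The neutrophil markers overlapped. What these markers contribute to the differences was not tested. The differences were largest for Mcpt8, at -6.83 ± 0.59 (SE, 114-fold, adjusted p = 2.48e-06), and for Cpa3, at -5.57 ± 0.34 (SE, 47.4-fold, adjusted p = 1.51e-07). Without the unnumbered MEP array, where it was not well above background, Mcpt8 was at -6.04, and it was 5.88 higher in GMP within run 1 and 8.72 higher within run 2. Hdc differed by -4.74 and Fcer1a by -4.62, and Ms4a2 was at least 32.9-fold lower. With normexp and in the authors' table the differences were -5.45 and -6.01 for Mcpt8, -4.63 and -5.06 for Cpa3 and -2.87 and -3.58 for Fcer1a. The eosinophil granule genes had the smaller differences, with -3.65 ± 1.01 for Epx, -3.31 ± 0.87 for Prg3 and -3.04 ± 0.85 for Prg2 (SE). For all 8, every GMP array was above every MEP array, as was so for 14.2% of all probes. The 3 eosinophil granule genes rested on single arrays: without the unnumbered MEP array the differences were -2.49 for Epx, -2.47 for Prg3 and -1.97 for Prg2 and none was called, and none was called without the unnumbered GMP array either. Without GMP replicate 1, Prg3 and Epx were not called. GMP was above MEP within both runs, by 1.42 for Prg2, 1.90 for Prg3 and 2.27 for Epx in run 1 and by 6.28, 6.13 and 6.41 in run 2, in the same order. The other 5 genes were called in every alternative tried and without any 1 array.

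**Figure D2:**
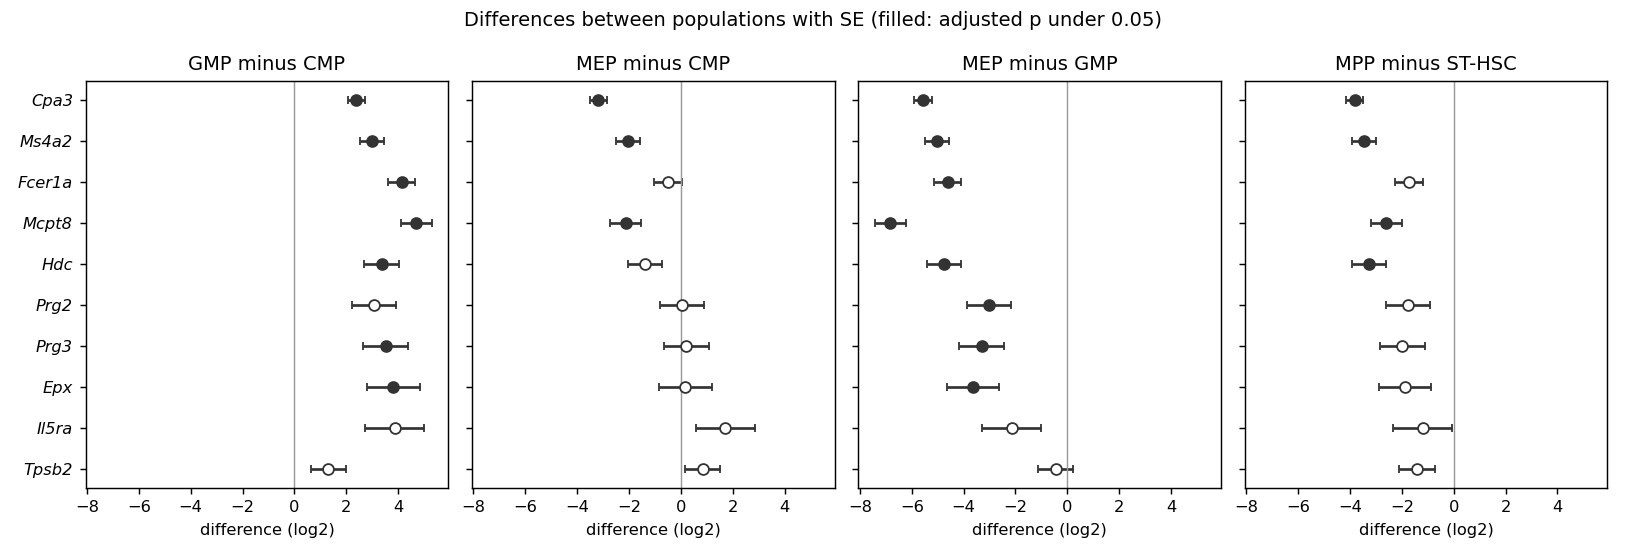
Log2 differences between populations for the 10 genes, as points with bars of 1 SE, filled where the adjusted p of limma was under 0.05. All 10 points lie above 0 for GMP minus CMP and below 0 for MEP minus GMP and MPP minus ST-HSC, whereas for MEP minus CMP 5 lie above 0 and 5 below.

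Within the HSC subsets, 9 of the 10 genes had their highest mean in ST-HSC, while Cpa3, Mcpt8 and Hdc were well above background on every LT-HSC and MPP array too. All 10 genes had a lower mean in MPP than in ST-HSC, with a median difference of -1.93 against 0.01 over all probes. Of the 10 genes, 4 were called: Cpa3 with -3.83 ± 0.34 (SE, 14.2-fold, adjusted p = 7.2e-05), Ms4a2 with -3.45 ± 0.46 (SE, adjusted p = 0.00126), Hdc with -3.27 ± 0.66 (SE, adjusted p = 0.0189) and Mcpt8 with -2.60 ± 0.59 (SE, adjusted p = 0.0407). Of all probes, 0.874% were called lower in MPP. Every ST-HSC array was above every MPP array for 7 of the genes, these 4 with Fcer1a, Prg2 and Il5ra, the last near background, and for 6.48% of all probes. For Ms4a2 the difference was -0.98 with normexp and -1.61 in the authors' table. All 10 genes were higher in ST-HSC within run 2 (1.02 to 2.81) and within run 3 (0.40 to 4.45). Cpa3 and Ms4a2 kept their calls without any 1 array, while Hdc and Mcpt8 lost theirs without any 1 of ST-HSC replicate 2, ST-HSC replicate 3, the unnumbered ST-HSC array, MPP replicate 2 or MPP replicate 3, which left 2 calls. Mcpt8 was also lost without any 1 GMP or CMP array and without MEP replicate 1, which enter the fit only through the spread. With the replicate number as a block, Mcpt8 was not called (adjusted p = 0.0844) and Fcer1a was (-1.73, adjusted p = 0.021), and the same held with that block within each sort (0.057 and 0.00976). Mcpt8 was also lost with 75th percentile scaling (adjusted p = 0.0868), and Fcer1a was also called with slide as a block (-1.82, adjusted p = 0.0163).

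Between LT-HSC and ST-HSC, 3 genes were called, all higher in ST-HSC: Mcpt8 by 4.10 ± 0.66 (SE, 17.2-fold, adjusted p = 0.00408), Ms4a2 by at least 15.9-fold (adjusted p = 0.000813; 0.98 on the log2 scale with normexp and 1.75 in the authors' table) and Cpa3 by 2.53 ± 0.38 (SE, 5.76-fold, adjusted p = 0.00234). Of all probes, 0.852% were called higher in ST-HSC. Without the dim unnumbered LT-HSC array the same 3 were called, with adjusted p from 0.00769 to 0.0474. With scanning run in the fit Fcer1a was called as well (2.25 ± 0.59 SE, adjusted p = 0.0391). Both LT-HSC arrays were on a slide of their own, so that population and slide cannot be told apart.

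Markers of GMP and of other cells moved with ST-HSC. The mean of 8 monocyte and macrophage markers was 9.06 to 9.94 in ST-HSC, with all 8 well above background, against 7.91 to 8.29 in MPP and 7.50 to 7.95 in LT-HSC. The mean of 6 megakaryocyte markers was 10.36 to 10.51 in ST-HSC against 6.88 to 7.69 in MPP. The mean of 4 GMP markers was 14.17 to 15.17 in ST-HSC against 11.54 to 13.17 in MPP and 12.07 to 13.99 in LT-HSC, and did not overlap with either. That of 8 erythroid markers was 7.43 to 8.46 in ST-HSC, 6.2 to 7.36 in MPP and 8.80 to 9.56 in LT-HSC. The mean of 8 neutrophil markers was 11.29 to 12.76 in ST-HSC, 9.83 to 11.69 in MPP and 11.79 to 12.52 in LT-HSC. For 5 B cell markers it was 6.86 to 7.17 in ST-HSC, 6.32 to 6.73 in MPP and 8.57 to 9.02 in LT-HSC. For 5 T cell markers it was 4.66 to 4.98, 5.06 to 5.64 and 6.10 to 6.13, in the same order. Their part in the differences of the 10 genes was not tested.

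GMP was above ST-HSC for 9 of the 10 genes, and 5 were called (Epx, Fcer1a, Hdc, Mcpt8 and Prg3), against 11.4% of all probes called higher in GMP. With scanning run in the fit none of the 5 was called (adjusted p from 0.0941 to 0.604), and Cpa3 and Ms4a2 were not called in either fit. Cpa3 was called higher in GMP with normexp (1.01, adjusted p = 0.016) and in the authors' table (1.01, adjusted p = 0.0179), as was Il5ra (0.91 and 1.499, adjusted p = 0.02 and 0.0142). The runs share only run 2, with 1 array each, in which GMP was higher for the same 9 genes.

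From MPP to CMP, which crosses from the HSC sort to the myeloid sort, Cpa3 alone was called, higher in CMP by 2.41 ± 0.34 (SE, 5.32-fold, adjusted p = 0.00073), and it was higher by 2.37 within run 2. Ms4a2 (1.43 ± 0.46 SE, adjusted p = 0.0604) was called as well with scanning run (2.32, adjusted p = 0.0417) or slide (adjusted p = 0.0198) as a block and without dim probes (0.0357). With 75th percentile scaling Ms4a2 differed by less (0.75, adjusted p = 0.453), and it was not called with normexp or in the authors' table either. Hdc (2.01 ± 0.66 SE, adjusted p = 0.0648) was called in the authors' table (0.0451) and without dim probes (0.0374). Among all probes, 6.75% were called higher in CMP. Megakaryocyte markers had means of 6.88 to 7.69 in MPP and 10.34 to 11.32 in CMP, and GMP markers 11.54 to 13.17 and 13.59 to 14.73. Monocyte and macrophage, erythroid and neutrophil markers overlapped. No test was made of their part in this step. In the comparison of the 3 HSC subsets with the 3 myeloid populations, Epx (-3.22), Prg3 (-2.24) and Ms4a2 (-0.78) were called, all lower in HSC subsets, where 23.1% of all probes were called in that direction. Within run 2, the only one with both, the differences were -0.22 for Epx, 0.06 for Prg3 and -0.92 for Ms4a2, with scanning run in the fit Epx and Prg3 were not called, and Prg3 was also lost with slide as a block (-1.65, adjusted p = 0.0592). The call of Ms4a2 was lost with 75th percentile scaling (adjusted p = 0.674), with normexp (0.23), in the authors' table (0.144), without LT-HSC (difference -0.03, adjusted p = 0.95) and without any 1 of 9 arrays: either LT-HSC array, MPP replicates 2 and 3, MEP replicates 1 and 2, GMP replicate 2 and the unnumbered GMP and CMP arrays. Scaling to the 75th percentile gave 4 calls lower and 1 higher in HSC subsets, the latter Tpsb2.

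Sets of mast cell and basophil genes and of eosinophil granule genes were compared by how their levels varied, with Tpsb2 and Il5ra in neither. Over the 17 arrays, which share populations and runs, the 5 genes Cpa3, Ms4a2, Fcer1a, Mcpt8 and Hdc correlated with each other at r of 0.83 to 0.95 (10 pairs), and Prg2, Prg3 and Epx at 0.93 to 0.97 (3 pairs). Between these sets, r was 0.56 to 0.84 (15 pairs), which overlaps with the range of the 5 genes. After subtraction of each population's mean, Prg2, Prg3 and Epx still varied together, at r of 0.93 to 0.94. Among the 5 mast cell and basophil genes r was 0.18 to 0.86 with a median of 0.44, and Cpa3 with Ms4a2 had the highest. Mcpt8 followed the eosinophil granule genes in these deviations (0.76 to 0.85) and Hdc did in part (0.57 to 0.64), whereas Cpa3, Ms4a2 and Fcer1a had r between -0.28 and 0.23 with them.

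The deviations of the eosinophil granule genes also went with those of the neutrophil markers. Over the 17 arrays, r was 0.67 for Prg2, 0.77 for Prg3 and 0.64 for Epx, 0.55 for Hdc and 0.40 for Mcpt8, against -0.15 for Cpa3, -0.31 for Ms4a2 and -0.16 for Fcer1a. For the levels themselves, r with the neutrophil markers was between -0.14 and 0.10 for Prg2, Prg3 and Epx. The unnumbered GMP, MPP and ST-HSC arrays of run 2 were high in both, with neutrophil means of 11.40, 11.69 and 12.76, and the unnumbered CMP (9.27) and MEP (10.33) arrays of the same run were low in both. LT-HSC went the other way. Its dim unnumbered array had the higher neutrophil mean (12.52 against 11.79). The same array was lower in Prg2 (12.68 against 14.13), Prg3 (6.91 against 8.48) and Epx (6.67 against 8.94). Whether the neutrophil transcripts have a part in the levels of the eosinophil granule genes was not tested.

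**Figure D3:**
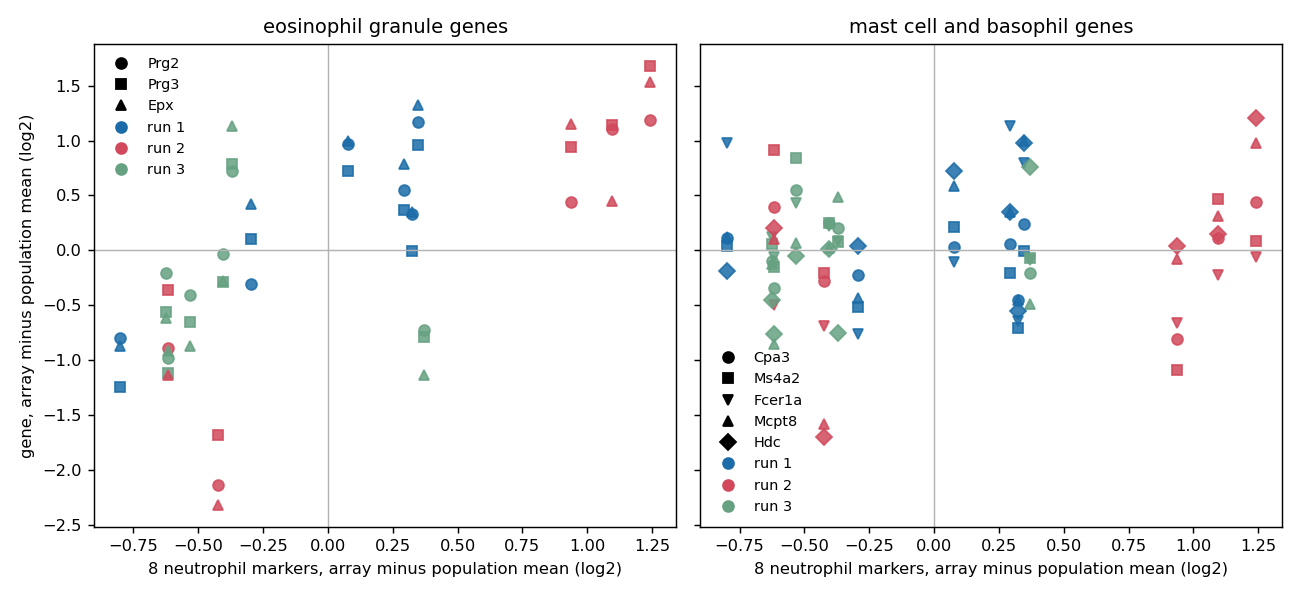
Deviation of each array from its population's mean (log2), for 3 eosinophil granule genes (left) and 5 mast cell and basophil genes (right), against the deviation of the mean of 8 neutrophil markers on the same array. Points are coloured by scanning run, and the points of Prg2, Prg3 and Epx run from low left to high right with r of 0.64 to 0.77 over 17 arrays.

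Further genes of the same cells, taken from lists of known members, were read by the brightest probe of each. Among 22 other genes of mast cells and basophils, 15 were well above background on a GMP or CMP array, 5 were called higher in GMP than in CMP and 1 lower. Over all gene names 2.06% were called higher and 3.43% lower, and the median of the list was 0.12 against 0.04. The largest differences upward were those of Cd200r3, an activating receptor of basophils and mast cells, which was at least 36.6-fold higher in GMP than in CMP (7.10 ± 0.83 SD, n = 3, in GMP; adjusted p = 4.15e-06), and of the mast cell chymase Cma1, higher by 2.71 ± 0.43 (SE, adjusted p = 0.00229). Ltc4s, the synthase of leukotriene C4, was lower in GMP (-1.54 ± 0.22 SE, adjusted p = 0.000941). With normexp and in the authors' table the differences were smaller, 1.41 and 2.22 for Cd200r3, below the bound, 0.93 and 1.53 for Cma1 and -0.67 and -0.99 for Ltc4s (log2), and still called.

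In MEP against GMP, 9 genes of this list were lower and 2 higher, with 10.3% of all gene names lower and 8.26% higher. Cd200r3 was at least 35.8-fold and Gzmb, which encodes granzyme B, at least 19.0-fold lower in MEP. With normexp and in the authors' table they differed by less than these bounds, by -1.38 and -2.26 for Cd200r3 and -1.29 and -2.05 for Gzmb (log2). Il1rl1, the IL-33 receptor ST2, went the other way and was higher in MEP than in GMP by 2.20 ± 0.28 (SE, adjusted p = 7.58e-05) and than in CMP by 1.78 ± 0.28 (SE, adjusted p = 0.00055). Ndst2, which acts in heparin synthesis, was higher in MEP than in CMP by 1.01 ± 0.19 (SE, adjusted p = 0.00208). Against CMP, 5 genes were lower in MEP and 2 higher, with 10.4% and 7.45% of all gene names, and the largest of these were Rab27b, a GTPase of granule release (-3.76 ± 0.54 SE, adjusted p = 0.000237), and Gzmb (at least 10.1-fold lower). With normexp and in the authors' table these were -1.30 and -1.997 for Rab27b and -0.81 and -1.40 for Gzmb (log2).

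ST-HSC carried more of this list than MPP did. Of the 22 genes, 9 were called lower in MPP and none higher, with 1.09% and 1.37% of all gene names. The median of the list was -0.98, against 0.01 over all gene names. Cma1 was at 9.20 ± 0.73 (SD, n = 3) in ST-HSC, above GMP with 6.81 ± 0.36 (SD, n = 3) and MPP with 6.05 ± 0.82 (SD, n = 3). Mcpt4, another mast cell chymase named here after its values were seen, was well above background on all 3 ST-HSC arrays (6.52 ± 0.13 SD) and on 2 of 3 MPP arrays (4.11 ± 1.06 SD), and on no GMP, CMP, MEP or LT-HSC array.

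Of 13 genes that carry the signal of FcεRI inside the cell, none was called higher in GMP than in CMP and 3 were lower, with 2.06% and 3.43% of all gene names. Among the 3 were the kinase Fyn (-1.86 ± 0.29 SE, adjusted p = 0.00188) and the adaptor Lat (-1.71 ± 0.30 SE, adjusted p = 0.00401). Fyn differed by -0.74 with normexp and -1.17 in the authors' table. In MEP, 9 were lower than in CMP and none was higher, with 10.4% and 7.45% of all gene names, and the median was -1.86 against 0.10 over all gene names. The adaptor Lat2 was lower in MEP than in CMP (-4.13 ± 0.21 SE, adjusted p = 8.41e-08), as was Fcer1g, the gamma chain that FcεRI shares with Fc gamma receptors (-3.31 ± 0.22 SE, adjusted p = 5.39e-07). Against GMP, 7 of the 13 were lower in MEP, Fcer1g with -3.70 and Lat2 with -3.09 among them, and 1 was higher, the adaptor Grap2, by 2.01 ± 0.56 (SE, adjusted p = 0.0227), with 10.3% of all gene names lower and 8.26% higher. Grap2 differed by 0.79 with normexp and 1.15 in the authors' table. Between MPP and ST-HSC, 1 of the 13 was called, Fcer1g, lower in MPP, as were 1.09% of all gene names.

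Among 11 other eosinophil genes on the array, 9 were well above background on a GMP or CMP array. Of the Ear genes, which encode ribonucleases of the eosinophil granule, Ear11 and Ear7 were among the profiles nearest to Prg2, as given further on. Ear4 was not well above background on any array, and Ear5 only on 1 LT-HSC array. Ear10 was higher in GMP than in CMP by 2.97 ± 0.74 (SE, adjusted p = 0.0345), Ear7 by 3.08 ± 0.81 (SE, adjusted p = 0.0464), and Ear3 was the third called of the 11, with 2.06% of all gene names. Ear3 and Ear7 share 49 of 60 probe bases and Ear3 and Ear10 a run of 31, so their values are not independent of each other. The median of the list was 2.88 in GMP against CMP and -2.22 in MEP against GMP, where only Siglecf, listed by its older name Siglec5, was called (-2.90 ± 0.41 SE, adjusted p = 0.000159), 1 of 11 against 10.3% of all gene names. Siglecf, a sialic acid receptor of eosinophils, was also lower in MEP than in CMP (-1.51 ± 0.41 SE, adjusted p = 0.0204) and lower in MPP than in ST-HSC (adjusted p = 0.00469).

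All 4 chains that signal with or beside Il5ra were well above background. Csf2rb, the chain shared by the receptors for IL-3, IL-5 and GM-CSF, was higher in GMP than in CMP by 1.26 ± 0.32 (SE, adjusted p = 0.0371), and Csf2ra, the GM-CSF-binding chain, by 1.22 ± 0.32 (SE, adjusted p = 0.0436). All 4 were called lower in MEP than in CMP, where 10.4% of all gene names were, and lower than in GMP, where 10.3% were. For Csf2rb the difference was -3.16 ± 0.32 (SE, adjusted p = 1.1e-05) from CMP and -4.42 ± 0.32 (SE, adjusted p = 5.13e-07) from GMP. For Csf2rb2, the IL-3-specific form in mice, it was -3.06 ± 0.34 (SE) from CMP and -3.88 ± 0.34 (SE) from GMP. None of the 4 was called between ST-HSC and MPP.

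Of 14 transcription factors known from the development of these cells, 2 were higher in GMP than in CMP and 4 lower, with 2.06% and 3.43% of all gene names. Gfi1 was higher by 2.75 ± 0.42 (SE, adjusted p = 0.00162) and Cebpb by 1.51 ± 0.33 (SE, adjusted p = 0.0162). Zfpm1, which encodes the GATA partner FOG-1, was lower (-2.63 ± 0.24 SE, adjusted p = 3.54e-05), as was Gata1 (-2.07 ± 0.40 SE, adjusted p = 0.00758). In MEP, 3 were higher than in GMP and 9 lower, with 8.26% and 10.3% of all gene names. Gata1 was higher by 4.03 ± 0.40 (SE) and Zfpm1 by 3.66 ± 0.24 (SE), and Irf8 (-5.15 ± 0.43 SE) and Cebpa (-4.76 ± 0.45 SE) were lower. Against CMP, 3 were higher in MEP, with Gata1 at 1.96 ± 0.40 (SE) and Tal1 at 1.195 ± 0.19 (SE), and 5 were lower, with Irf8 at -5.73 ± 0.43 (SE) and Cebpa at -3.39 ± 0.45 (SE). Over all gene names, 7.45% were higher and 10.4% lower in MEP than in CMP.

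Gata1, Gata2, Tal1 and Zfpm1 were called lower in MPP than in ST-HSC, and Irf8 higher, with 1.09% and 1.37% of all gene names. Gata2, named here after its values were seen, was highest in ST-HSC (12.68 ± 0.23 SD, n = 3), followed by CMP (12.21 ± 0.15 SD, n = 3), LT-HSC (12.16 ± 0.16 SD, n = 2) and GMP (11.49 ± 0.02 SD, n = 3), and was lowest in MPP (10.81 ± 0.19 SD, n = 3) and MEP (10.54 ± 0.12 SD, n = 3). GMP, where Cpa3, Ms4a2 and Fcer1a were highest, thus stood below ST-HSC, CMP and LT-HSC for Gata2. MPP and MEP were the lowest populations for Gata2 and for Cpa3, but not for the other 2 genes. MEP and LT-HSC were lowest for Ms4a2 (2.85 and 2.91, within background) and for Fcer1a (5.42 and 5.83). Whether Gata2 has a part in the levels of these genes was not tested.

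**Figure D4:**
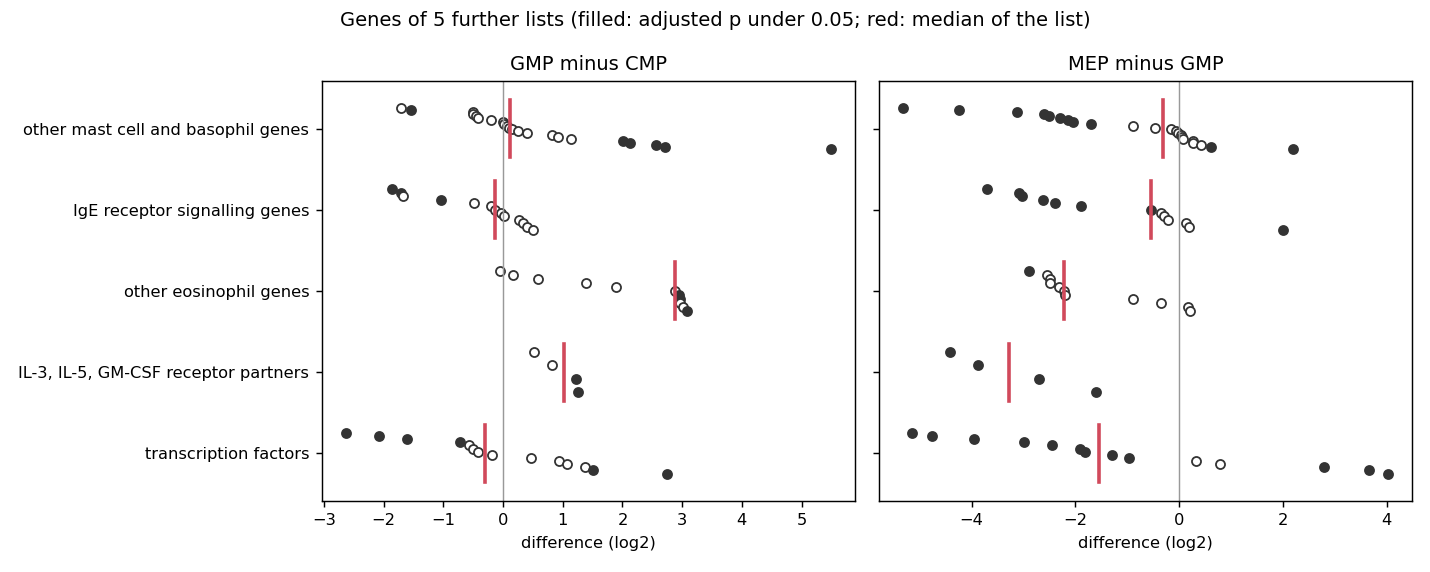
Log2 differences of the genes in 5 further lists, GMP minus CMP (left) and MEP minus GMP (right), 1 point per gene, filled where the adjusted p of limma was under 0.05, with the median of each list in red. The medians for other eosinophil genes are 2.88 and -2.22, and those for IgE receptor signalling genes -0.13 and -0.54.

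Over the 17 arrays and 16772 gene names, the profiles most like those of the 10 genes often belonged to the set itself. The nearest to Cpa3 was Ms4a2 (Pearson r = 0.95), before Clec7a and Hsd17b1 (both 0.94). The nearest to Ms4a2 were Cdh1, Cpa3 and Glrp1 (all 0.95), and to Fcer1a Mcpt8 (0.93), Afap1 and Ambp (both 0.92). Mcpt8 was most like Prss34 (0.96), which encodes another basophil protease, then Cdh1 (0.95) and Dio2 (0.93). Hdc was nearest to Fcgr3 and Ms4a3 (both 0.99) and Mtus1 (0.97), and Fcgr3 encodes a receptor by which GMP were sorted. Prg2 was most like Ear11, Ear7 (both 0.97) and Prg3 (0.96), Prg3 like Epx (0.97), Ear6 and Prg2 (both 0.96), and Epx like Prg3, Tmem2 (both 0.97) and Sec22c (0.94). For Tpsb2 and Il5ra, which were near background on most arrays, the highest r were 0.85 (Cops7a, before Ankrd24 and Bet1) and 0.82 (EG624219, before Uso1 and Slc39a7).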

How the data were processed

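Messenger RNA of 6 sorted populations was read on 17 single-color Agilent arrays. Per the file headers, Feature Extraction 10.2.1.3 or, for the 6 numbered myeloid arrays, 9.5.3.1 made the processed intensity values by correcting background and spatial trend on each array. The log2 values in the series table were made by the authors by quantile normalization with limma over the arrays, and served as an alternative.

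Here log2 of the processed signal was quantile normalized over all 45018 spots (limma 3.58.1, R 4.3.3, Python 3.11.15). The 1639 control spots were dropped, spots flagged as outliers were left out (161 probe values missing) and spots of a probe were averaged. limma was fitted with 1 mean per population, moderated by eBayes, and p-values were adjusted by Benjamini-Hochberg over 41174 probes in each contrast, with 0.05 as the threshold. Every adjusted p in the text is from this fit or a named alternative of it. The fit was tested on simulated data first. Names and probe positions came from the scanner files of the design on mm9. The labels do not say which samples came from separate animals, so p-values measure the spread between these arrays, and their number limits the precision.

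A gene that no array of a population found well above background has only a bound there. "At least N-fold" sets the bright population's mean against the mean, per array, of the higher of the gene's own value and the lowest value among probes well above background. It is a bound on the scale of the processed signal, and normexp and the series table give smaller differences for dim genes. Named genes were the 10 genes, from each further list the 2 largest called differences each way among CMP, GMP and MEP without overlap, and for each of the 10 genes the 3 profiles most like its own among gene names well above background on at least 6 arrays. Genes with several probes were read by the brightest. The members and lists were chosen with earlier results of these data known. The main fit did not pair arrays by label. Arrays with the same label, with unnumbered taken as a label of its own, did not deviate together between sorts (r of -0.06 to 0.07, 12 pairs). Within a sort they did (0.13 to 0.67, 12 pairs), against -0.57 to 0.33 for unlike labels (24 pairs). For contrasts within a sort the main fit thus leaves out a pairing. The blocks by replicate number, which also take unnumbered as a label, stand as alternatives. Alternatives were 75th percentile scaling, normexp (offset 50), a filter on dim probes, the series table, scanning run, slide and replicate number as blocks, leaving out LT-HSC, and leaving out each array.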

Additional observations from a re-analysis of the deposited data

How the results depend on the processing

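Of the 10 genes, those called in HSC subsets against myeloid populations numbered 3, against 5 with 75th percentile scaling, 6 with normexp, 5 without dim probes and 1 with scanning run as a block. In MPP against CMP the count was 1, against 2 in the authors' table, 3 without dim probes and 2 with either scanning run or slide as a block. In MEP against GMP, 2 other eosinophil genes were called by the mean of a gene's probes, against 1. Leaving out each array gave 7 to 10 genes differing over the populations, 2 to 6 in HSC subsets against myeloid populations, 1 to 2 in MPP against CMP, 4 to 8 in CMP against GMP, 2 to 3 in CMP against MEP, 5 to 8 in GMP against MEP and 2 to 4 in ST-HSC against MPP.

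Under these alternatives the differences that turned sign were not called ones, while within scanning run 2 the called difference of Prg3 in HSC subsets minus myeloid populations was 0.06. In HSC subsets minus myeloid populations these were, with scanning run as a block, Tpsb2 (-0.21), Mcpt8 (0.305), Hdc (0.135), Prg2 (0.29) and Il5ra (0.20), with the replicate block Tpsb2 (-0.30), and without LT-HSC Mcpt8 (0.33). In CMP minus MPP they were, with the replicate block, Fcer1a (0.079) and Mcpt8 (-0.033), with slide as a block Mcpt8 (-0.26), and with scanning run Tpsb2 (0.047), Mcpt8 (-0.72), Prg2 (-0.68), Prg3 (-0.31), Epx (-0.17) and Il5ra (-0.74). Leaving out each array moved Fcer1a from -0.83 to 0.055 and Mcpt8 from -0.31 to 0.605 in CMP minus MPP. In MEP minus CMP it moved Fcer1a from -0.88 to 0.081, Prg2 from -0.54 to 1.11, Prg3 from -0.27 to 1.05 and Epx from -0.49 to 1.33. The cause was not tested.

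The replicate block gave 6 genes called in CMP against GMP, 3 in CMP against MEP, 8 in GMP against MEP and 4 in ST-HSC against MPP, and a block within each sort, chosen after seeing the data, gave 8, 3, 8 and 4, with Il5ra gained in CMP against GMP, and Fcer1a gained and Mcpt8 lost in ST-HSC against MPP. With 75th percentile scaling the median difference of all probes was 0.49 in MEP minus CMP, 0.43 in MEP minus GMP and 0.31 in HSC subsets minus myeloid populations, against 0.10, 0.07 and -0.02 otherwise. Tpsb2 and Il5ra were near background on most arrays, which limits what these arrays show of them.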
